A study of Mus musculus with 6 samples.

Results

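The miR-30 family in these data is the set of mature microRNAs cut from 6 mouse hairpins, miR-30a, miR-30b, miR-30c-1, miR-30c-2, miR-30d and miR-30e, with both arms of each (names in the table carry the prefix mmu- for mouse). Members were chosen by name: every entry of those hairpins was taken, with 1 entry per mature name, which gave 11 members of the 1915 mature names in the count table. All 11 passed the filter on low counts, which kept 525 names for testing. The libraries come from iBN cells, which grow in suspension with GM-CSF, are labelled as granulocyte-macrophage progenitors, and carry a system for inducing the transcription factor PU.1 in both groups. Cells induced with doxycycline at 1000 ng/ml for 72 hours gave 3 libraries, and uninduced cells gave 3, numbered as trials 1, 2 and 3 in each group. The series title places the comparison in the study of PU.1 dose in myeloid differentiation. PU.1 itself is not measured by small RNA sequencing, and no library of doxycycline-treated cells lacking the inducible gene was analysed here. The labels do not say whether the trials were separate cultures, so p-values measure only how these libraries spread, and that spread may be technical.

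MicroRNAs are short RNAs that guide Argonaute proteins to messenger RNAs, mainly through pairing of bases 2 to 8, the seed. Each hairpin yields a 5p and a 3p arm, of which one is usually kept as the guide and the other mostly degraded. The miR-30 5p arms share one seed and so are thought to act on overlapping targets. In kidney, muscle and epithelia the family is known for holding down mesenchymal and profibrotic genes such as Snai1, and miR-30a is known for targeting the autophagy gene Becn1.

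RefSeq sequences (GRCm38.p6, the assembly also called mm10) were matched by name for 7 of the 11 members. Both arms of miR-30b and miR-30d had no match, so the seed of miR-30b-5p and miR-30d-5p was taken from the family and not checked here. The mature 5p arms are shown first because their shared seed, in capitals, is what allows their levels to be pooled.
miR-30a-5p: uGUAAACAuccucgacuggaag
miR-30e-5p: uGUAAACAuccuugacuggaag
miR-30c-5p: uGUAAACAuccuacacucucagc
miR-384-5p: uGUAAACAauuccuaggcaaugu
Positions are counted from 1 at the 5′ end, with the base of the first-named sequence before the position. miR-30a-5p and miR-30e-5p differ at 1 base, C13U. miR-30a-5p and miR-30c-5p share their first 12 bases and differ at 5 of the 22 they can be compared over. miR-384-5p was the only other name in the table with this seed among the 1623 names that had a sequence. miR-30f, read from the strand opposite to the miR-30e hairpin, was not a member by the rule and had 2 reads over the 6 libraries.

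The 3p arms are shown next, again with bases 2 to 8 in capitals, because they tell apart the hairpins that the 5p arms do not.
miR-30a-3p: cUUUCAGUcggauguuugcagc
miR-30e-3p: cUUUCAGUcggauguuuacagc
miR-30c-1-3p: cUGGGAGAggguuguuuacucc
miR-30c-2-3p: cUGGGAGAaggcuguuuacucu
Between miR-30a-3p and miR-30e-3p the single difference is G18A. miR-30c-1-3p and miR-30c-2-3p differ by G9A, U12C and C22U. How reads with a mismatch or with several matches were assigned is not given in the sources used here, so the split of reads between miR-30a and miR-30e is uncertain for both arms.

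The hairpins lie in pairs at 3 loci of GRCm38. On chromosome 15, miR-30b (68337415 to 68337510) and miR-30d (68341208 to 68341289) sit 3697 bases apart on the minus strand. miR-30b overlaps an exon of Gm26621, and miR-30d overlaps exons of Gm37296 and Gm20732, none of them annotated as protein-coding. No listed gene covers both hairpins. On chromosome 4, miR-30c-1 (120769534 to 120769622) and miR-30e (120772606 to 120772697) sit 2983 bases apart in intronic sequence of Nfyc, which encodes a subunit of the transcription factor NF-Y, on the strand of that gene. On chromosome 1, miR-30a (23272269 to 23272339) and miR-30c-2 (23291701 to 23291784) lie 19361 bases apart on the plus strand. The GENCODE annotation places miR-30c-2 over an exon of the long noncoding RNA Gm27028 and lists no other gene over miR-30a. The miR-30c hairpins are printed because both contain the same mature 5p arm, in capitals.
Mir30c-1: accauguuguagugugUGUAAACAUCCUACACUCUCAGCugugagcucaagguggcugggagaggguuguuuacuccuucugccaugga
Mir30c-2: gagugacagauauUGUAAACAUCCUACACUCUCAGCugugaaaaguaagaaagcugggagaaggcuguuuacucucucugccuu
In the deposited table the entries of miR-30c-5p for these hairpins totalled 314925 and 314917 reads over the 6 libraries, so the same reads were entered under both. miR-30c-5p therefore cannot be given to chromosome 1 or chromosome 4.

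The libraries held 9089319 to 13946613 reads in induced cells and 8697384 to 11714847 in uninduced cells. Among the markers of the labelled cell type, 6 haematopoietic and myeloid microRNAs (0 changed in edgeR on the group alone, 1 higher with the trial as a block) summed to 81677 CPM ± 9753 in induced and 80491 CPM ± 10398 in uninduced cells (SD, n = 3 each; CPM are read counts relative to library size, scaled between libraries with TMM factors). Most of this sum was miR-142a-5p, and the median log2 fold change of the 6 was -0.07. Single markers went both ways: miR-155-5p had 616 to 746 CPM in induced and 732 to 853 CPM in uninduced libraries. miR-146a-5p had 6.23 to 6.73 CPM in induced and 4.22 to 4.58 CPM in uninduced ones. Marker sums for muscle, liver, neural, erythroid and embryonic stem cells stayed under 1.5 CPM in each library, and miR-124-3p, miR-144-3p, miR-206-3p, miR-214-3p, miR-291a-3p and miR-302a-3p had 0 reads in all 6. The 7 epithelial markers summed to 81.2 to 101 CPM in induced and 32.2 to 39.8 CPM in uninduced cells. Most of that was miR-141-3p, with 55.3 to 63.3 CPM in induced and 19.0 to 26.4 CPM in uninduced libraries. Of the 5 epithelial markers tested, 3 were higher on the group alone and 4 with the block. The 5 stromal markers summed to 145 to 215 CPM in induced and 230 to 270 CPM in uninduced cells. Most of that was miR-143-3p, with 108 to 167 CPM in induced and 158 to 198 CPM in uninduced libraries, ranges that overlapped. Of the 3 stromal markers tested, 1 was lower on the group alone and 3 with the block. The 2 lymphoid markers summed to 23444 to 30830 CPM in induced and 30568 to 32827 CPM in uninduced cells, with 0 changed on the group alone and 1 lower with the block. Nearly all of that sum was miR-181a-5p, while miR-150-5p had 25.4 to 44.9 CPM over the 6 libraries. The sum is thus in effect the level of 1 microRNA. Beside these marker calls, 3.43% of all tested microRNAs were higher and 2.67% lower on the group alone. With the block 10.7% of all tested were higher and 21.7% changed in either direction. The part of these cell types in the miR-30 values was not tested. In bulk RNA, fewer cells of a type and less RNA per cell cannot be told apart.

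The miR-30 family was abundant in both conditions, and its 5p arms supplied nearly all of its reads. No member passed the test of induced against uninduced cells when the group alone was modelled, whereas with the trial as a block miR-30d-5p and miR-30b-5p, the 5p arms of the chromosome 15 locus, were higher in induced cells, by 0.33 and 0.26 on the log2 scale. Those blocked calls rest on taking the trial numbers as pairs. Fold changes near 0 were seen for miR-30a-5p and miR-30a-3p, from chromosome 1. miR-30c-2-3p, from the same locus, was the member with the most negative change and did not pass in either fit.

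**Figure D1:**
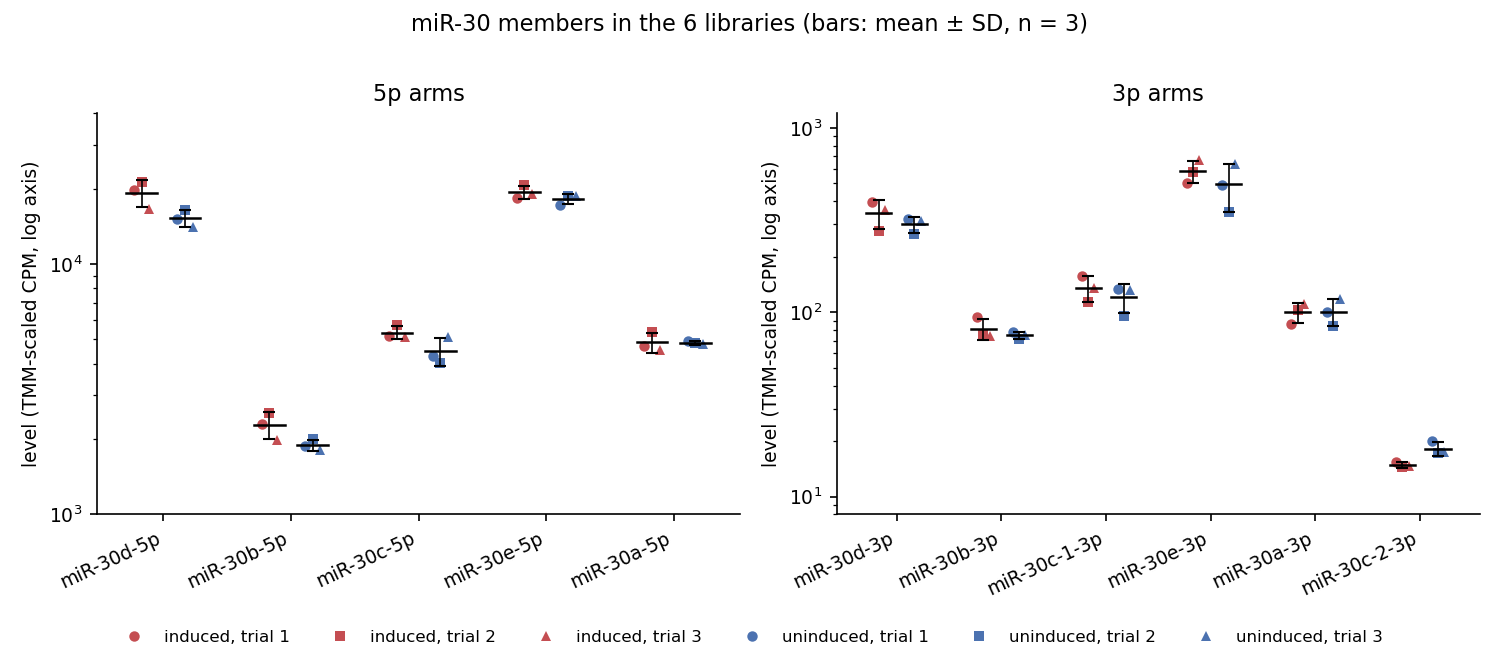
Levels of the 11 members in each library, in TMM-scaled CPM on a log axis, 5p arms on the left and 3p arms on the right. Symbols are trials, red for induced and blue for uninduced cells, and bars give the mean ± SD (n = 3); miR-30d-5p stands at 16619 CPM or more in all induced libraries, above the highest uninduced value of 16410 CPM.

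mmu-miR-30d-5p, the main product of the chromosome 15 locus and the 14th most abundant of the 525 tested microRNAs, had 19769, 21321 and 16619 CPM in the induced libraries of trials 1, 2 and 3, against 15151, 16410 and 14055 CPM in the uninduced ones. Each induced library lay above every uninduced one, although the gap between induced trial 3 and uninduced trial 2 was narrow. The log2 fold change, induced over uninduced, was 0.34 (SE 0.12, 95% interval 0.07 to 0.61), with an edgeR adjusted p of 0.137. With the trial as a block the change was 0.33 (SE 0.08) and the edgeR adjusted p was 0.0082. Under the block and without both libraries of one trial, the edgeR adjusted p was 0.110 without trial 1, 0.0260 without trial 2 and 0.0979 without trial 3. The log2 fold changes of those fits, which rest on fewer libraries, were 0.31, 0.31 and 0.37.

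mmu-miR-30b-5p comes from the neighbouring hairpin and was the least abundant 5p member. It had 2306, 2546 and 1981 CPM in the induced libraries, against 1870, 1997 and 1814 CPM in the uninduced ones. Within each trial the induced library was the higher one, but the groups overlapped, because induced trial 3 lay below uninduced trial 2. Its log2 fold change was 0.27 (SE 0.12, 95% interval -0.01 to 0.55; edgeR adjusted p = 0.253), and 0.26 (SE 0.08; edgeR adjusted p = 0.0365) with the block. Without induced trial 2 the log2 fold change on the group alone was 0.17. The blocked call was lost whichever trial was left out of the blocked fit. The edgeR adjusted p was 0.288 without trial 1, 0.155 without trial 2 and 0.102 without trial 3. The log2 fold changes of those fits were 0.24, 0.21 and 0.31. Such fits rest on fewer libraries, and their calls over all tested microRNAs also fell, from 114 to 66, 60 and 12. The 3p arms of the locus had smaller values: miR-30d-3p averaged 344 CPM ± 61.9 in induced and 299 CPM ± 30.7 in uninduced cells (SD, n = 3 each), a log2 fold change of 0.20 (SE 0.16). miR-30b-3p averaged 81.5 CPM ± 10.97 in induced and 74.9 CPM ± 3.29 in uninduced cells, a log2 fold change of 0.12 (SE 0.14). Neither 3p arm passed in either fit. Single libraries moved both: miR-30d-3p was at 0.10 without induced trial 1, 0.14 and 0.13 without induced trial 3 or uninduced trial 2, and 0.33 without induced trial 2, and miR-30b-3p was at 0.012 without induced trial 1.

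From the Nfyc locus, mmu-miR-30e-5p was the most abundant member over the 6 libraries and ranked 13th of all tested microRNAs. It had 18360, 20624 and 19106 CPM in induced and 17165, 18732 and 18699 CPM in uninduced libraries. The groups overlapped, and the log2 fold change was 0.09 (SE 0.10, 95% interval -0.13 to 0.31; edgeR adjusted p = 0.669), or 0.03 without either induced trial 2 or uninduced trial 1. Its partner arm miR-30e-3p had 505, 575 and 669 CPM in induced and 493, 350 and 639 CPM in uninduced libraries. The uninduced value of trial 2 was the lowest of the 6. Its log2 fold change was 0.24 (SE 0.21), and the within-trial log2 ratio was 0.72 in trial 2 and 0.04 and 0.06 in trials 1 and 3. Without uninduced trial 2 the change was 0.05, without induced trial 3 0.09, and without uninduced trial 3 0.47. The other hairpin in Nfyc is represented by miR-30c-1-3p alone, which averaged 135 CPM ± 21.7 in induced and 120 CPM ± 21.3 in uninduced cells (SD, n = 3 each; log2 fold change 0.17, SE 0.18). That change was 0.06 without induced trial 1, 0.04 without uninduced trial 2 and 0.27 without induced trial 2.

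mmu-miR-30c-5p, made at the chromosome 1 and the chromosome 4 locus, had 5173, 5696 and 5104 CPM in induced and 4288, 4028 and 5122 CPM in uninduced libraries. The trials differed for this member, with within-trial log2 ratios of 0.27, 0.50 and -0.01 in trials 1, 2 and 3. Its log2 fold change of 0.25 (SE 0.12) was close to that of miR-30b-5p, but the edgeR adjusted p was 0.267, or 0.0776 with the block.

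At the chromosome 1 locus, mmu-miR-30a-5p had 4712, 5374 and 4536 CPM in induced and 4929, 4819 and 4786 CPM in uninduced libraries. The uninduced values lay inside the range of the induced ones. The log2 fold change was 0.01 (SE 0.11, 95% interval -0.23 to 0.25), and its sign turned with DESeq2, with RLE factors and with some libraries left out. miR-30a-3p averaged 100 CPM ± 12.3 in induced and 101 CPM ± 16.8 in uninduced cells (SD, n = 3 each; log2 fold change -0.01, SE 0.17). mmu-miR-30c-2-3p, which was the rarest member, had 15.4, 14.5 and 14.7 CPM in induced and 20.1, 17.2 and 17.4 CPM in uninduced libraries, from 129 to 200 reads per library. Each induced library lay below every uninduced one, yet the change of -0.29 (SE 0.16) did not pass, with an edgeR adjusted p of 0.326 and of 0.0776 with the block.

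**Figure D2:**
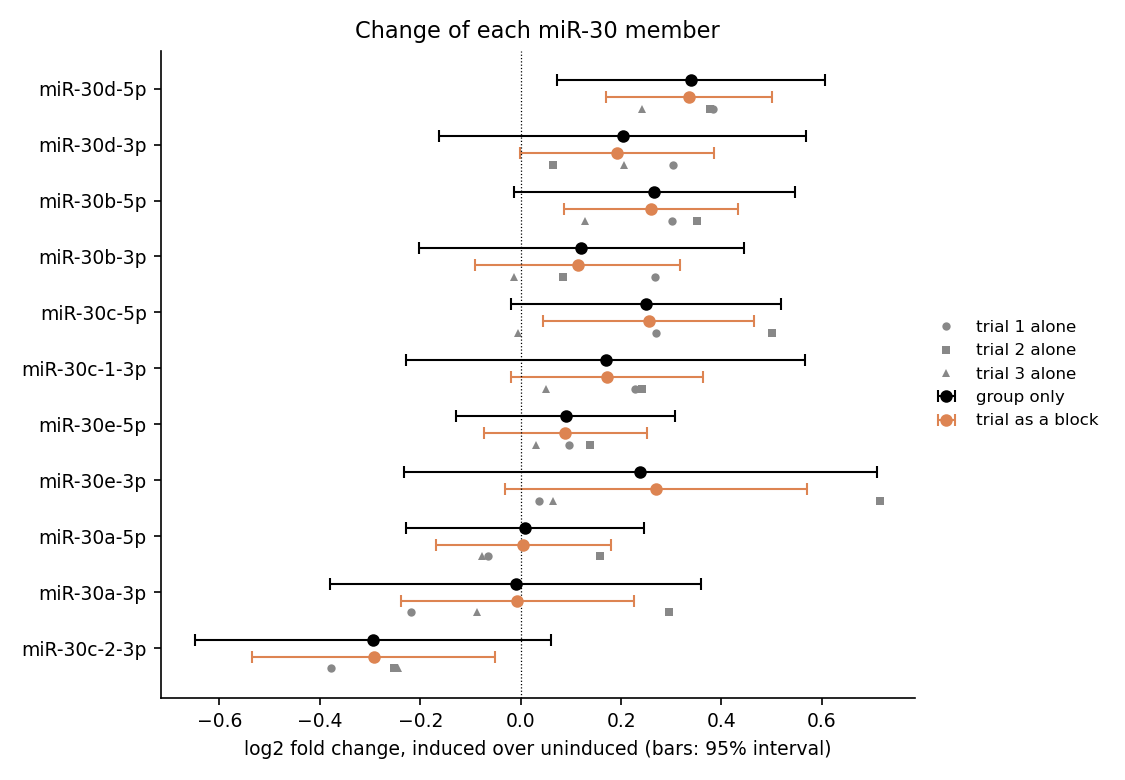
Log2 fold change of each member, induced over uninduced, with 95% intervals from the fit on the group alone (black) and with the trial as a block (orange); grey symbols are the ratios within single trials. Estimates run from 0.34 for miR-30d-5p to -0.29 for miR-30c-2-3p, and the blocked intervals are narrower.

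Over the whole table, 32 of 525 microRNAs (6.10%) passed the quasi-likelihood test of edgeR (Benjamini-Hochberg adjusted p under 0.05), 3.43% upward and 2.67% downward, against 0 of the 11 members. Among the members 1, namely miR-30d-5p, had an unadjusted edgeR p under 0.05, against 20.8% of all tested, and DESeq2 also passed 0 members. With the block, 2 members passed, both higher (18.2% of the members), against 10.7% of all tested microRNAs that passed upward and 21.7% that passed in either direction. An unadjusted blocked p under 0.05 was reached by 4 members (36.4%) and by 37.1% of all tested. The groups did not overlap for 2 members, miR-30d-5p upward and miR-30c-2-3p downward, against 27.6% of all tested in either direction and 16.0% upward. None of these shares lies more than 1 member (9.09%) above the background, so the calls are not a result about the family as such. The median log2 fold change was 0.17 over the members, 0.25 over the 5 5p arms and 0.02 over all tested, and 9 of the 11 members were above 0, against 52.2% of all tested. The induced library was the higher one in each of the 3 trials for 6 members, against 29.0% of all tested microRNAs. The arms of one hairpin share a precursor, and members of one locus may share a primary transcript, which was not measured. These counts are therefore not of independent items.

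**Figure D3:**
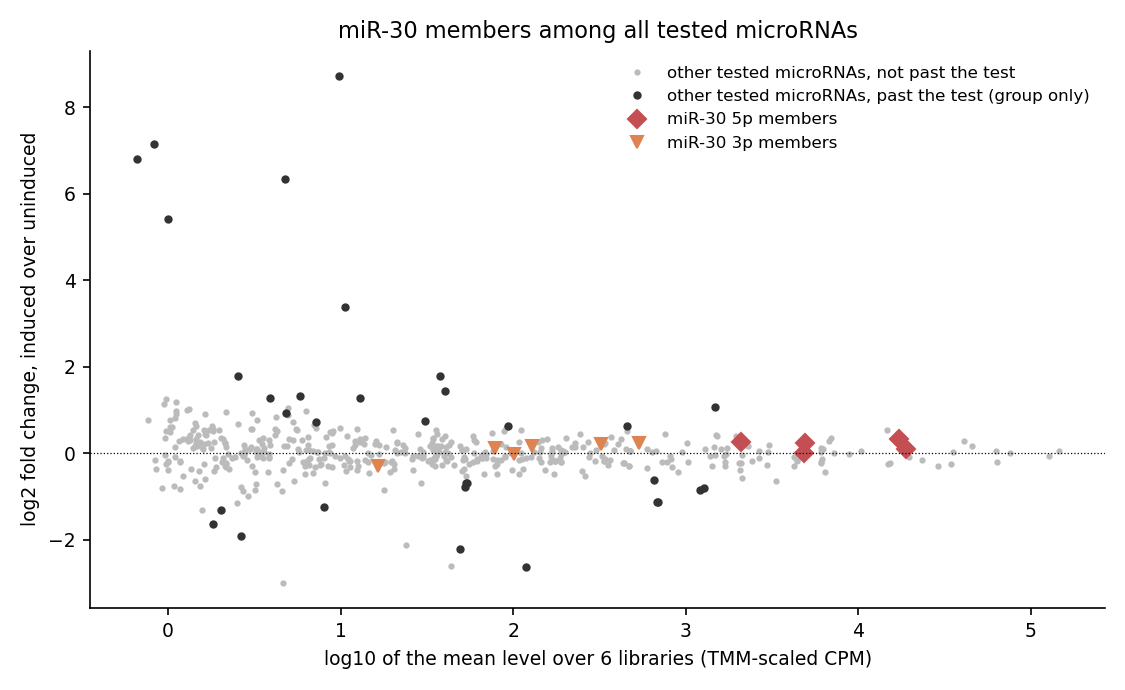
Log2 fold change, induced over uninduced, against the log10 of the mean level for all 525 tested microRNAs. The miR-30 5p members (red diamonds) sit at the abundant end between 0.01 and 0.34, the 3p members (orange triangles) lie between -0.29 and 0.24, and none is among the 32 microRNAs that passed (black).

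The order of the 5p levels was compared within each group, the members with a sequence being 22 or 23 bases long. How well each sequence enters a library was not measured here, so the order is one of reads and may not be that of molecules. In induced cells miR-30e-5p (19364 CPM ± 1154) and miR-30d-5p (19237 CPM ± 2396) were level within their spread (SD, n = 3 each). In uninduced cells miR-30e-5p (18199 CPM ± 895) lay above miR-30d-5p (15205 CPM ± 1179), with no overlap between libraries. miR-30c-5p and miR-30a-5p followed, at 5324 CPM ± 323 and 4874 CPM ± 442 in induced cells and 4479 CPM ± 572 and 4845 CPM ± 75.3 in uninduced cells, and their ranges overlapped in both groups. miR-30b-5p came last in every library. Among the 3p arms the order was miR-30e, miR-30d, miR-30c-1, miR-30a, miR-30b and miR-30c-2 by mean in both groups.

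Summed over the 5 5p members, the pooled seed level was 50320, 55561 and 47347 CPM in the induced libraries and 43404, 45986 and 44475 CPM in the uninduced ones. Every induced library lay above every uninduced one. The group means stood 1.14-fold apart (log2 0.19), with log2 ratios of 0.21, 0.27 and 0.09 in trials 1, 2 and 3. Without induced trial 2 the log2 ratio was 0.12. As a share of the reads of each library, before TMM scaling, the 5p members made up 4.62% to 5.45% in induced and 4.15% to 4.76% in uninduced cells, ranges that overlapped. miR-30d-5p supplied 62.5% of the difference between the group means, miR-30e-5p 18.1%, miR-30c-5p 13.1%, miR-30b-5p 5.95% and miR-30a-5p 0.449%. No test was applied to the pool, whose members were chosen with earlier results of these data known. miR-384-5p had 0 reads in all libraries, a count that allows up to 0.215 to 0.345 CPM per library for counting error only. Among the 1623 names with a sequence it was the only one outside the members with this seed. Names without a sequence were not screened for the seed.

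**Figure D4:**
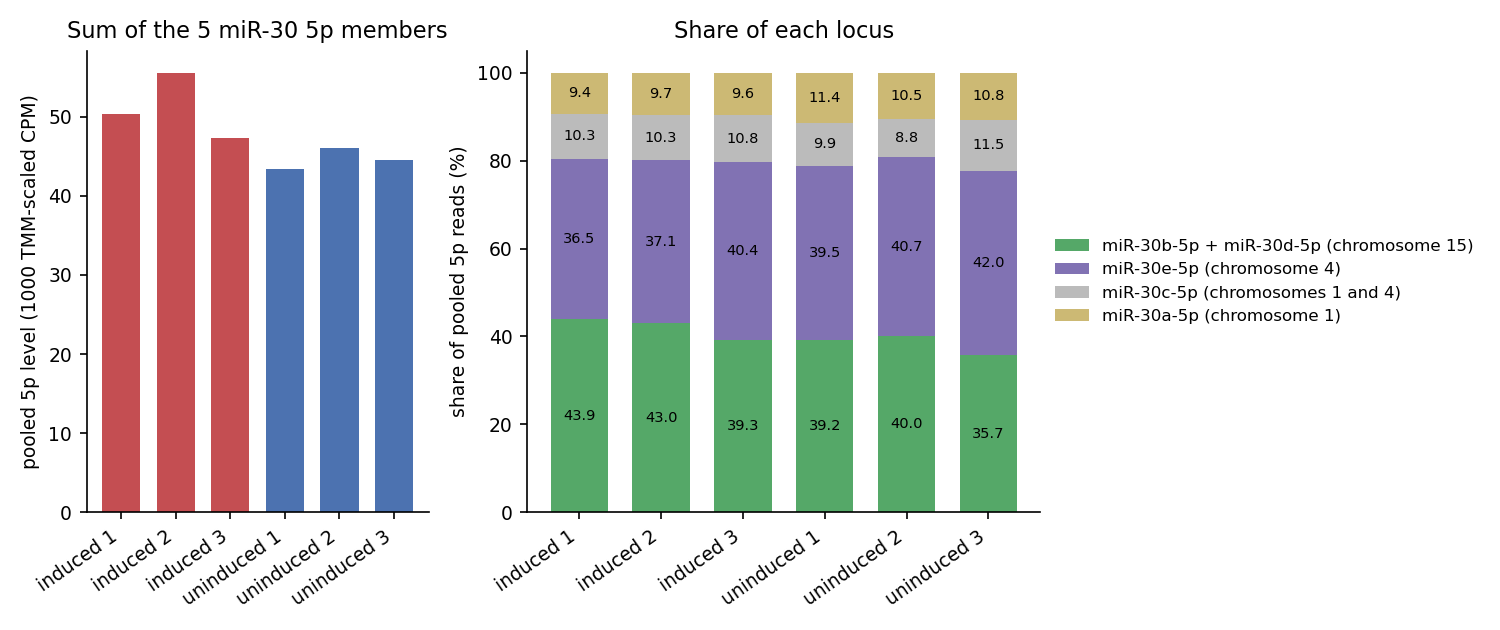
Left, the pooled level of the 5 miR-30 5p members per library in units of 1000 TMM-scaled CPM; right, the share of each locus in those reads. The chromosome 15 share (green) is 39.3% to 43.9% in induced and 35.7% to 40.0% in uninduced libraries, and the miR-30a-5p share (yellow) is 9.36% to 9.67% in induced and 10.5% to 11.4% in uninduced libraries.

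The composition of the pool by locus was then compared, a measure that does not depend on scaling between libraries. miR-30b-5p and miR-30d-5p together made up 42.0% ± 2.43 of the pooled 5p reads in induced and 38.3% ± 2.31 in uninduced cells (SD, n = 3 each). Within each trial the induced share was higher, but trial 3 was lowest in both groups and the groups overlapped. miR-30e-5p made up 38.0% ± 2.07 in induced and 40.8% ± 1.25 in uninduced cells, and miR-30c-5p 10.4% ± 0.30 in induced and 10.1% ± 1.39 in uninduced cells, a difference that changed sign without uninduced trial 2. miR-30a-5p made up 9.54% ± 0.16 in induced and 10.9% ± 0.45 in uninduced cells, and for it the groups did not overlap.

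As ratios between loci, miR-30b-5p plus miR-30d-5p over miR-30a-5p gave log2 values of 2.23, 2.15 and 2.04 in induced and 1.79, 1.93 and 1.73 in uninduced libraries. The induced libraries were all higher, by 0.32 on average and by 0.44, 0.22 and 0.31 within trials 1, 2 and 3. The exact two-sided permutation test gave p = 0.1, the smallest that 3 libraries against 3 allow, and 0.3 after Benjamini-Hochberg adjustment over the 3 locus pairs. For the chromosome 15 locus over miR-30e-5p the log2 ratio was 0.15 ± 0.16 in induced and -0.09 ± 0.13 in uninduced cells (SD, n = 3 each). The difference of 0.24 had the same sign in each trial, but the groups overlapped, with an exact permutation p of 0.3 (0.45 adjusted). miR-30a-5p over miR-30e-5p differed by -0.08 between induced and uninduced cells (exact permutation p = 0.5). For the 3p arms of these hairpins, miR-30e-3p reads were 5.83, 5.56 and 6.04 times those of miR-30a-3p in induced libraries and 4.88, 4.16 and 5.43 times in uninduced ones. The groups did not overlap in this 3p ratio, which was not tested. With so few libraries the permutation test cannot pass 0.05, and it shows neither that the loci moved apart nor that they moved alike.

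Proportions within a locus were compared next. miR-30d-5p reads were 8.57, 8.37 and 8.39 times those of miR-30b-5p in induced libraries and 8.10, 8.22 and 7.75 times in uninduced ones, without overlap between the groups. For the 3p arms of the same hairpins, miR-30d-3p over miR-30b-3p was 4.23 ± 0.59 in induced and 3.99 ± 0.26 in uninduced cells (SD, n = 3 each). The 3p arms of miR-30c, which unlike the shared 5p arm can be told apart, gave miR-30c-1-3p, from Nfyc, 91.0%, 88.7% and 90.3% of their summed reads in induced and 87.0%, 84.8% and 88.3% in uninduced libraries. The groups did not overlap in this share, and within each trial the induced library was the higher one. It rests on miR-30c-2-3p, with 129 to 200 reads per library. The proportions within a locus were not tested. Among single tested microRNAs 27.6% did not overlap between the groups, and no such background was computed for the pool, shares or ratios.

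The balance of the arms was the last comparison, taken as log2 of 5p over 3p reads and fitted with limma over 151 hairpins whose arms both passed the filter. The 5p arm outnumbered the 3p arm in every miR-30 hairpin, by 57.7 ± 16.9 times for miR-30d in induced and 51.4 ± 9.29 times in uninduced cells (SD, n = 3 each). The ratio was 49.1 ± 7.16 and 48.9 ± 8.30 for miR-30a in induced and uninduced cells, and 33.6 ± 4.37 and 39.2 ± 12.7 for miR-30e. For miR-30c, with the 3p arms of both hairpins summed, it was 36.1 ± 7.53 in induced and 32.6 ± 4.15 in uninduced cells. miR-30b had the smallest excess, 28.2 ± 4.73 in induced and 25.3 ± 2.23 in uninduced cells.

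**Figure D5:**
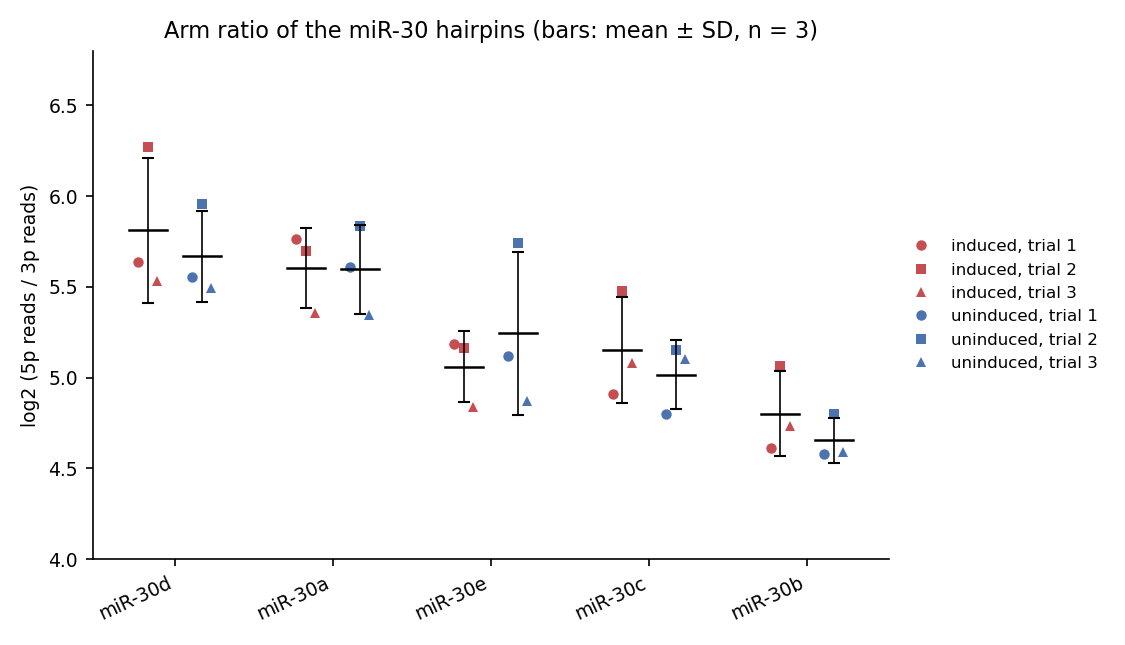
Log2 ratio of 5p to 3p reads for each miR-30 hairpin, with the libraries of trials 1, 2 and 3 as symbols and the mean ± SD (n = 3) as bars; the axis starts at 4. Induced and uninduced libraries overlap for all 5 hairpins, and trial 2 is highest for miR-30b, miR-30c and miR-30d in both groups.

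None of the 5 arm ratios changed with induction in limma's test, against 1 of all 151 (0.662%) that passed at an adjusted p of 0.05, and 0 of the 5 against 1.32% of all with the block. At an unadjusted p under 0.05 there were also 0 of the 5, against 5.96% of all, and with the block 18.5% of all. The differences ran from -0.18 (SE 0.27, 95% interval -0.79 to 0.43) for miR-30e to 0.15 (SE 0.21, 95% interval -0.34 to 0.63) for miR-30b, with limma adjusted p-values of 0.986 for each hairpin. These intervals, from the group alone, are wide enough to hold a shift of about the size of the miR-30d-5p change. The fit on the group alone therefore does not show that such a shift was absent. With the block the standard errors were smaller, from 0.11 for miR-30b to 0.17 for miR-30e.

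Outside the family, the profiles most like the pooled miR-30 5p level were those of miR-103-3p, miR-16-5p, miR-106b-3p and miR-330-3p, with root mean square differences of 0.02, 0.04, 0.05 and 0.05 in centred log2 CPM over the 6 libraries. miR-103-3p, for instance, had 3188, 3550 and 2969 CPM in induced and 2725, 2959 and 2869 CPM in uninduced libraries, and none of these 4 passed the test in either fit. By the same measure the members themselves lay between 0.06 for miR-30b-5p and 0.31 for miR-30e-3p. Of 20 microRNAs with a known place in PU.1 biology or myeloid cells, 4 were higher and 0 lower in edgeR on the group alone, 8 higher and 1 lower with the block, and their median log2 fold change was 0.28. Over all tested microRNAs 3.43% were higher on the group alone, 10.7% were higher and 21.7% changed in either direction with the block, and the median was 0.02. The 20 were listed with earlier results of these data known, so the difference from that background is no test of the list. Several share a hairpin and are not independent items. Among them miR-342-3p, miR-342-5p, miR-511-3p and miR-511-5p had 1.18 to 19.8 CPM in induced and 0 to 0.214 CPM in uninduced libraries.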

How the data were processed

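Small RNA libraries of 6 samples were analysed from deposited tables. Per the labels' protocols, total RNA was made into TruSeq small RNA libraries and sequenced as single reads. Tools named in the submitters' processing notes are Trim Galore 0.4.0 and DESeq2 2.1.8.0 (as listed), with build mm10; the design text states alignment to miRBase. Not given in the sources used here: the counter, miRBase release, strand use and handling of reads with several matches. The authors deposited raw read counts per mature microRNA and precursor in 2061 entries. They also deposited CPM, which equal the counts over the total of all entries and served 1 alternative. Of the entries of a name, the one with the highest total was kept, which left out 17.5% of all counts.

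The tests used edgeR 4.0.16 (R 4.3.3; TMM, filterByExpr, robust glmQLFit, glmQLFTest, Benjamini-Hochberg at 0.05 over all 525 tested, two-sided, induced over uninduced). Standard errors are the fold change over the root of F. Arm ratios used limma 3.58.1 with trend and a prior count of 2. The edgeR and limma steps were also run on simulated data, with changes larger than that of any member. The outcome is not given here, and that run does not cover changes as small as those of the members. Libraries of one group differed by more than sampling noise (chi-square 98.7 to 344 times its degrees of freedom). After subtraction of group means, libraries of the same trial correlated by 0.33, 0.45 and 0.53 over microRNAs, all over 0.1, so the trial numbers were taken to pair the libraries. Between different trials the values ran from -0.45 to 0.04. Centring within groups forces part of this contrast, and the check used the same counts as the blocked fit. It is therefore no independent support for the pairing. All members are named, with 4 profiles most like theirs and any other name with their seed. Members, lists and rules were chosen with earlier results of these data known. Alternatives were DESeq2 1.42.0, other scalings, filters, entry choices and prior counts, the block, and leaving out libraries. No molecular identifiers are described, so count limits cover counting error only.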

Additional observations from a re-analysis of the deposited data

How the results depend on the processing

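With the trial as a replicate block, the count past the test went to 114 of all tested and 2 members, against 32 and 0 with the group alone. Without a trial in the blocked fit (chosen after seeing the data), the counts were 66, 60 and 12 of all tested and 0, 1 and 0 members without trials 1, 2 and 3. Leaving out single libraries gave 12 to 41 of all tested and 0 members; the lower counts were 16 and 14 without induced 1 and 2, and 12 and 17 without uninduced 1 and 2. The count of hairpins with a changed arm ratio was 1, went to 2 with the block and 0 with both arms at 10 CPM or more, and ranged from 1 to 3 with single libraries left out; no miR-30 hairpin was among them.

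The following directions turned. miR-30a-5p, at 0.01, went to -0.0083 with DESeq2 and with RLE factors, to -0.075 in the blocked fit without trial 2, and between -0.079 and 0.038 with single libraries left out. miR-30a-3p, at -0.01, went to 0.0062 with library totals only, to 0.020 with the deposited CPM, to 0.099 and 0.021 in the blocked fit without trials 1 and 3, and between -0.13 and 0.11 with single libraries left out. The arm ratio differences of miR-30a, miR-30c, miR-30d and miR-30e, at 0.01, 0.14, 0.14 and -0.18, turned in some fits that left out a library, ranging from -0.12 to 0.13 for miR-30a, -0.024 to 0.26 for miR-30c, -0.086 to 0.29 for miR-30d and -0.37 to 0.066 for miR-30e. The difference in the miR-30c-5p share of the pool, 0.385 percentage points, was -0.262 without uninduced 2. The cause was not tested. The pooled log2 ratio ranged from 0.12 to 0.23, and the chromosome 15 over miR-30a-5p difference from 0.28 to 0.38, across all their alternatives. Beside miR-30d-5p and miR-30b-5p, the trial block changed no call among the members or the miR-30 arm ratios. For members with few reads, such as miR-30c-2-3p, depth limits precision.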
